A study of Mus musculus with 12 samples.

Results

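The 10 genes described here encode heat shock proteins and heat shock factors. Hspa2, Hspa1l and Hspa4l are known for their expression in male germ cells, and they are set beside the general chaperones Hspa4, Hspa5, Hspa8, Hsp90aa1 and Hsph1 and beside the transcription factors Hsf1 and Hsf2. They were found by symbol through their Ensembl identifiers and make up 10 of the 37675 genes listed. All 10 passed the filter on low counts and were among the 16860 genes tested.

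Testes of the inbred mouse strain C57BL/6NHsd were taken whole, and their RNA was sequenced, during the first wave of spermatogenesis. At each of postnatal day (PND) 7, 14, 17, 21 and 28 there were 2 mice, which gave 10 mice and 12 libraries, because PND 7 RNA was sequenced under 2 barcodes per mouse. The ages differ in which germ cells the testis holds, from spermatogonia at PND 7 through spermatocytes to elongating spermatids at PND 28. The labels name no treatment, and each of the 10 RNA samples came from a different animal.

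Chaperones of the HSP70 family bind unfolded stretches of other proteins and release them in a cycle driven by ATP. J-domain proteins start that cycle, and nucleotide exchange factors, among them the HSP110 proteins, complete it by replacing the spent ADP. HSP90 acts later, on proteins that are nearly folded, and the heat shock factors bind the promoters of chaperone genes. Male germ cells are known for making HSP70 and HSP110 forms of their own, of which HSPA2 takes part in meiosis and in spermatid maturation.

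The total count on genes was between 3994026 and 13559548 per mouse, of which mitochondrial ribosomal RNA took 14.9% to 36.1%. The labelled ages were checked against 8 lists of cell type markers, of which 39 of 40 genes were matched. The summed RPKM of the 6 spermatocyte markers was 80.2 and 87.6 in PND 7 mice, between 851 and 1672 at PND 14 and PND 17, 2451 and 2531 in PND 21 mice and 3531 and 3788 in PND 28 mice. Most of the later sum was Ldhc, at 3269 and 2994 RPKM in PND 28 mice. Ccna1 was also higher at PND 28 than at PND 17, at 109 and 85.1 after 8.02 and 3.45. Sycp1, Sycp3, Hormad1 and Piwil1 were lower. Sycp3 was at 167 and 216 after 311 and 308, and Hormad1 at 41.8 and 39.4 after 67.6 and 59.2. The 6 spermatid markers summed to at most 3.73 RPKM at PND 7, where 3 of them in mouse 1 and 5 in mouse 2 had no count, and to 6273 and 7917 RPKM in PND 28 mice. Spermatogonial markers summed to 157 and 194 RPKM at PND 7 and to 46.4 and 52.6 in PND 28 mice. Among somatic cells, 5 of the 6 Sertoli markers were matched and summed to between 279 and 652 RPKM, most of it Cst9, while Amh was at 20.4 and 8.86 RPKM in PND 7 mice and 0.76 and 0.95 in PND 28 mice. Leydig markers summed to between 110 and 204 RPKM until PND 21 and to 577 and 454 in PND 28 mice, and peritubular markers to 139 and 177 in PND 7 mice and 41.1 and 53.1 in PND 28 mice. The part of these somatic shifts in the results was not tested. Macrophage markers summed to between 17.1 and 43.2 RPKM and red blood cell markers to between 20.5 and 125. The testis is a mixture, so that fewer cells of a type and less RNA per cell cannot be told apart in any value given here.

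At PND 14, mouse 1 stood apart from mouse 2. Its spermatid markers summed to 366 RPKM against 14.0 RPKM in mouse 2 and between 12.9 and 14.7 RPKM in PND 17 mice. Tnp1, a transition protein of condensing spermatids, was at 158 RPKM in mouse 1 and 5.17 RPKM in mouse 2, and the protamine gene Prm1 was at 133 and 2.46 RPKM. In mouse 1 the 6 markers were at 3.15% to 10.4% of their PND 28 means, and Hspa1l was at 3.20% of its own. In mouse 2 the markers were at 0.106% to 2.87%. The highest of these was Spaca1, which differed little between the mice (5.32 and 3.70 RPKM). Hspa2 and Hspa4l were not higher in mouse 1 than in mouse 2. How the spermatid RNA of this library came about was not tested. Calls of the 10 genes that rest on it are given with and without it.

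**Figure D1:**
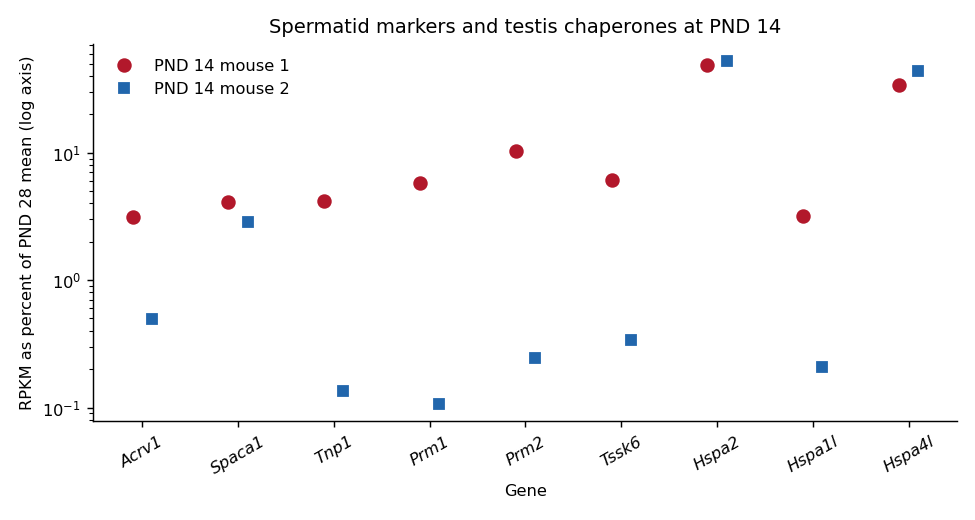
RPKM of the 6 spermatid markers and of Hspa2, Hspa1l and Hspa4l in each PND 14 mouse, as percent of the mean of the PND 28 mice (log axis). Hspa1l was at 3.20% in mouse 1 and 0.207% in mouse 2, whereas Hspa2 and Hspa4l were lower in mouse 1, the latter at 34.0% against 43.6%.

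The promoters of the 3 testis genes are shown first, because these genes move with germ cell age, and that of Hsph1 beside them, because it carries the heat shock element that the testis genes lack in this window. The sequences are from RefSeq (GRCm38.p6), 250 bases before to 50 bases after the annotated start, and 7 of the 10 genes matched, all but Hspa8, Hsp90aa1 and Hsf1. Each window also matched NCBIM37, the mm9 assembly of the files, exactly at 1 place, which is the position given. Capitals mark heat shock elements (GAANNTTC or TTCNNGAA, the short form of 2 units, or the long form in which a further GAA or TTC unit continues the alternation after NN) and the CCAAT box, written CCAAT or ATTGG according to its strand.
Hspa2, chr12:77505107-77505406, plus strand: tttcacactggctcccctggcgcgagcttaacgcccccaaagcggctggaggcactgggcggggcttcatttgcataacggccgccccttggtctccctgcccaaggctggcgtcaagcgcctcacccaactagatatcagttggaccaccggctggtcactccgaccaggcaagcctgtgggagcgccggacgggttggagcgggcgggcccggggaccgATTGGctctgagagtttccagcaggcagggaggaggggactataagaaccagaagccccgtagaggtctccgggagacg
Hspa1l, chr17:35109398-35109697, plus strand: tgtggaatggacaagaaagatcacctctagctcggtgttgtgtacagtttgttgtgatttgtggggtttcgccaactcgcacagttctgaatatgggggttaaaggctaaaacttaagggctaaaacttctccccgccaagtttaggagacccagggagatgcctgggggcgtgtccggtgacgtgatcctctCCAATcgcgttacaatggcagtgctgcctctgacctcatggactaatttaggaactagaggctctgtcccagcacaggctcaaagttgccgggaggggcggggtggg
Hspa4l, chr3:40549285-40549584, plus strand: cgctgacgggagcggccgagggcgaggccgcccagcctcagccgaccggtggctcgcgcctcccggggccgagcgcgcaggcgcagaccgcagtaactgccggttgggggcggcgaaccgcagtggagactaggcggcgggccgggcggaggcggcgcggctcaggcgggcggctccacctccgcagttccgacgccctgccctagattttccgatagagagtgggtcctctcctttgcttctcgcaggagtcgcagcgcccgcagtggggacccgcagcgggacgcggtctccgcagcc
Hsph1, chr5:150438862-150439161, minus strand: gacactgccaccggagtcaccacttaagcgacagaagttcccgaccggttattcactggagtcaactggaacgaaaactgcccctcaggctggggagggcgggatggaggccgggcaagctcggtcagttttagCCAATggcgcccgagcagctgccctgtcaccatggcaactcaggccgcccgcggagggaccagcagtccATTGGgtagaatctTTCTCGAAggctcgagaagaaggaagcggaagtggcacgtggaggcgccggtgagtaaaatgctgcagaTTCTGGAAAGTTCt
In these windows Hspa2, Hspa1l and Hspa4l held no heat shock element of either length. A CCAAT box began 29 bases before the start of Hspa2 and 57 bases before that of Hspa1l, and Hspa4l held none. Hsph1 held a short element 33 bases before its start and 2 overlapping short elements that form a long one, which begins 36 bases after it. Of the other matched genes, Hspa4, Hspa5 and Hsf2 held no heat shock element, and Hspa5 held 4 CCAAT boxes. Among 27025 promoters of the same length, 15.1% held the short element, 0.529% the long one and 37.9% a CCAAT box. The RefSeq start lay 194 bases inside the gene as the files give it for Hspa2 and 1118 bases inside it for Hspa4l, and at the same base for Hspa1l.

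Hspa2 encodes the HSP70 of pachytene spermatocytes and later germ cells. The gene (ENSMUSG00000059970) lies at chr12:77505163-77507921 of mm9 on the plus strand. Its RPKM, the reads per kilobase of exon and per 1000000 counted reads, was 8.72 and 11.1 in the PND 7 mice, 248 and 267 in PND 14 mice, 290 and 207 in PND 17 mice, 432 and 366 in PND 21 mice and 559 and 464 in PND 28 mice. The mice of PND 7 were below all others, those of PND 14 and PND 17 overlapped, and those of PND 21 and PND 28 were higher than these and did not overlap each other. Between PND 7 and PND 14 Hspa2 rose 24.7-fold, a fitted log2 fold change of 4.63 ± 0.29 (SE) with an edgeR adjusted p of 6.57e-06. Between PND 17 and PND 21 the log2 fold change was 0.80 ± 0.24 with an edgeR adjusted p of 0.0581, and between PND 21 and PND 28 it was 0.59 ± 0.24 with an adjusted p of 0.174, neither of which was called. From PND 7 to PND 28 Hspa2 rose 65.7-fold (log2 6.04 ± 0.30, edgeR adjusted p of 3.94e-07). No stretch of 50 bases of its exons had a match of 95% identity elsewhere in the genome, so that its unique reads could be assigned over the whole gene.

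Hspa1l encodes an HSP70 of spermatids and lies in the major histocompatibility complex region of chromosome 17 next to the stress-inducible Hspa1a and Hspa1b. The gene (ENSMUSG00000007033) is at chr17:35109648-35116229 on the plus strand. Its counts were 5 and 2 in PND 7 mice, 120 and 7 in PND 14 mice, 27 and 19 in PND 17 mice, 42 and 60 in PND 21 mice and 3955 and 2666 in PND 28 mice. In RPKM these were 0.23 and 0.12, then 6.34 and 0.41, then 0.83 and 1.98, then 4.29 and 3.95, and 184 and 213 in PND 28 mice. Except in PND 14 mouse 1, Hspa1l was thus close to the limit of counting until PND 17, and it was low at PND 21 and among the more abundant genes of the testis at PND 28. Between PND 21 and PND 28 it rose 56.1-fold (log2 5.81 ± 0.79, edgeR adjusted p of 0.00181). From PND 7 to PND 28 the fitted log2 fold change was 10.44 ± 1.05 (edgeR adjusted p of 1.2e-05). The ratio of the summed counts, scaled by the TMM library sizes, was 1413 with a 95% counting interval of 685 to 3516.

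The rise of Hspa1l between PND 7 and PND 14 depended on PND 14 mouse 1. With all mice the log2 fold change was 4.12 ± 1.06 with an edgeR adjusted p of 0.0195, and without that mouse it was 1.14 with an adjusted p of 0.363. The call was also lost without PND 7 mouse 1 (adjusted p of 0.0537) and without PND 7 mouse 2 (adjusted p of 0.0968) in edgeR, and in limma (log2 1.45). Between PND 17 and PND 21 the log2 fold change of 1.85 ± 0.83 was not called, with an edgeR adjusted p of 0.172, but it was called without PND 14 mouse 1 (adjusted p of 0.00852) and without PND 14 mouse 2 (adjusted p of 0.00845), which leave the mice compared as they are and change the estimated spread. A long non-coding RNA on the opposite strand, Gm10501, shares 1778 bases with the exons of Hspa1l, which is 72.0% of them. Its count was between 2 and 29 in each mouse, and at PND 28 it was 16 and 2 beside 3955 and 2666 for Hspa1l.

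Hspa4l encodes an HSP110 protein that is abundant in germ cells and serves as an exchange factor for HSP70. The gene (ENSMUSG00000025757) is at chr3:40548417-40600025 on the plus strand. Its RPKM was 10.1 and 5.61 in PND 7 mice, 46.9 and 60.04 in PND 14 mice, 63.2 and 59.5 in PND 17 mice, 99.95 and 78.5 in PND 21 mice and 130 and 146 in PND 28 mice. The PND 7 mice were below all others, the PND 14 and PND 17 mice lay close together, and the levels at PND 21 and PND 28 were each higher than at the age before, without overlap. Hspa4l rose 6.38-fold between PND 7 and PND 14 (log2 2.67 ± 0.32, edgeR adjusted p of 0.000209). None of the later steps was called, with log2 fold changes of 0.27, 0.65 and 0.86 in order of age. Over the whole span from PND 7 to PND 28 it rose 21.9-fold (log2 4.46 ± 0.34, edgeR adjusted p of 2.02e-06). The exon length of 11792 bases behind its RPKM is the union over all annotated transcripts, which lowers its RPKM relative to genes whose transcripts share their exons.

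**Figure D2:**
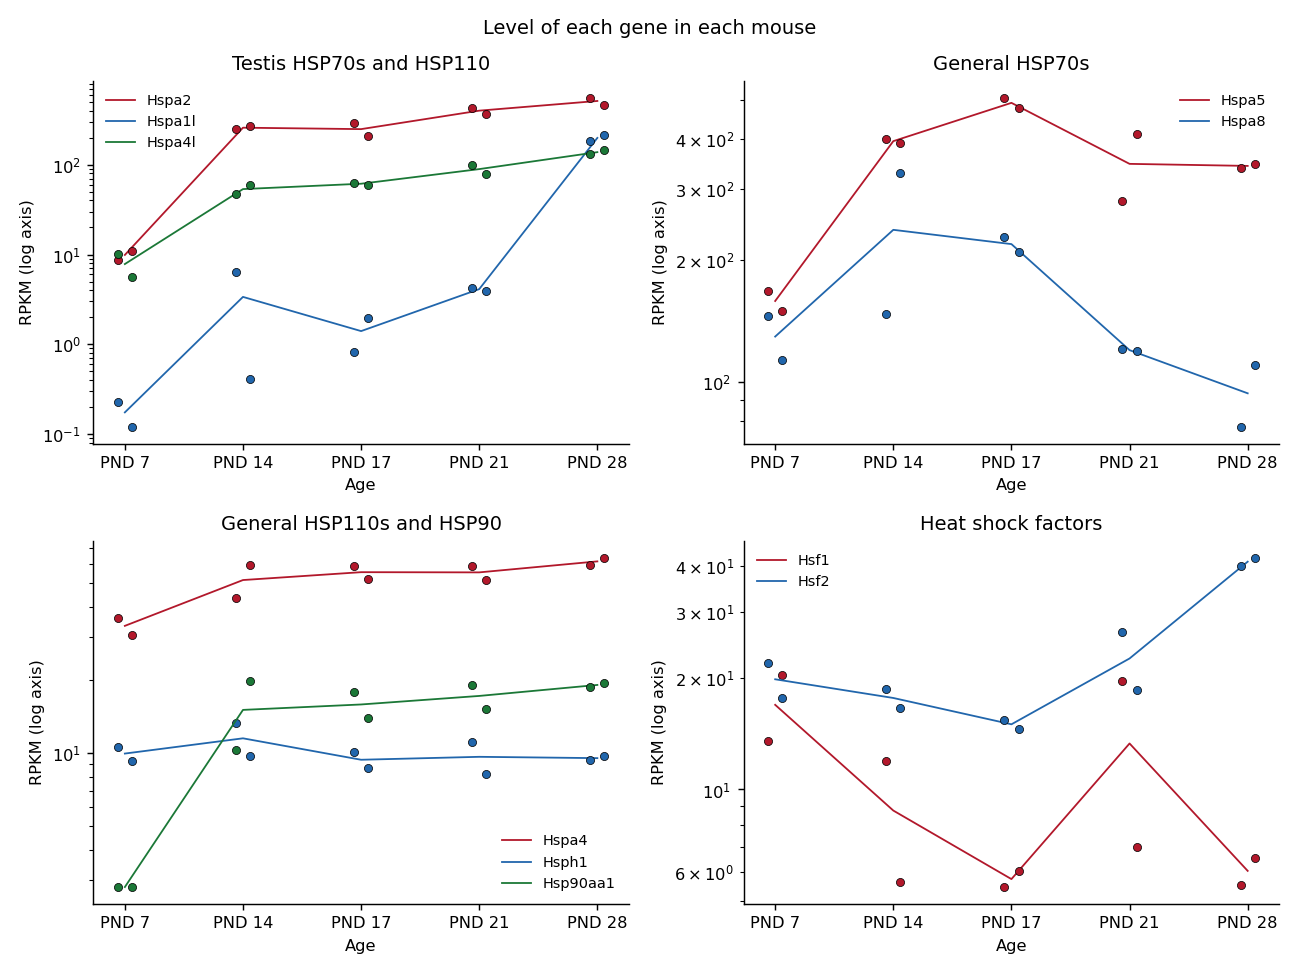
RPKM (log axes) of the 10 genes by age in 4 panels, with a point for each mouse and a line through the mean of the 2 mice of an age. Hspa2 and Hspa4l were higher from PND 14 on, whereas Hspa1l stayed at or below 6.34 RPKM until PND 21 and was at 184 and 213 RPKM in PND 28 mice.

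Hspa5 encodes BiP, the HSP70 of the endoplasmic reticulum. The gene (ENSMUSG00000026864) is at chr2:34627490-34632051 on the plus strand. It was the most abundant of the 10 genes until PND 17, at 168 and 150 RPKM in PND 7 mice, 400 and 390 in PND 14 mice, 506 and 476 in PND 17 mice, 281 and 412 in PND 21 mice and 340 and 346 in PND 28 mice. The level was highest at PND 17, where the mice did not overlap with those of any other age. Hspa5 rose 2.31-fold between PND 7 and PND 14 (log2 1.21 ± 0.27, edgeR adjusted p of 0.0104), a call that was lost without PND 7 mouse 2 (adjusted p of 0.0727). It rose 2.70-fold between PND 7 and PND 28 (log2 1.43 ± 0.27, edgeR adjusted p of 0.000988), and no step between PND 14 and PND 28 was called.

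Hspa8 encodes HSC70, the constitutive HSP70 of the cytosol. The gene (ENSMUSG00000015656) is at chr9:40609067-40613283 on the plus strand. As deposited its RPKM was 146 and 113 in PND 7 mice, 147 and 329 in PND 14 mice, 229 and 210 in PND 17 mice, 120 and 119 in PND 21 mice and 77.3 and 110 in PND 28 mice. The 2 mice of PND 14 differed 2.23-fold, and no comparison of ages was called, with a log2 fold change of -0.14 ± 0.37 between PND 7 and PND 28 (edgeR adjusted p of 0.762).

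These values of Hspa8 appear to be mostly those of 3 small nucleolar RNAs that lie within it. Snord14c, Snord14d and Snord14e guide modification of ribosomal RNA, are processed from introns of the Hspa8 transcript and lie within exons of its annotated retained-intron transcripts. Their summed counts equalled 87.2% to 95.9% of the count of Hspa8 in every mouse. Across the annotation, 37 protein-coding genes held at least 1 small RNA gene with 100 or more counts inside an exon on the same strand. In 37 of these 37 genes the host's count was at least the sum of the nested genes in every library. The same held for 0 of 1 host with a small RNA on the opposite strand. Counting a read on a nested small RNA for the host as well would give this on the same strand. A host with enough reads of its own would meet it either way, so the check cannot settle how such reads were counted.

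The counts of Hspa8 that remained after subtraction were 451 and 173 in PND 7 mice, 599 and 575 in PND 14 mice, 891 and 165 in PND 17 mice, 83 and 125 in PND 21 mice and 253 and 138 in PND 28 mice. Scaled to the rest of the gene this was 12.4 and 6.22 RPKM, 20.1 and 21.3 RPKM, 17.4 and 10.9 RPKM, 5.38 and 5.22 RPKM and 7.46 and 7.00 RPKM in the same order. The remainder was highest at PND 14, where the mice did not overlap with PND 7, and lowest at PND 21. In a fit with the remainder in place of the deposited count, which was chosen after the values were seen, Hspa8 rose between PND 7 and PND 14 (log2 1.04 ± 0.32, edgeR adjusted p of 0.0400) and fell by 1.30 ± 0.33 on the log2 scale between PND 17 and PND 21 (edgeR adjusted p of 0.0304). Between PND 7 and PND 28 its log2 fold change was -0.05 ± 0.32 with an edgeR adjusted p of 0.907. A further limit is that 49.6% of the exon bases of Hspa8 have a match of at least 50 bases and 95% identity at other places of mm9, where reads would not be unique, so that the remainder is compared here between ages only.

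**Figure D3:**
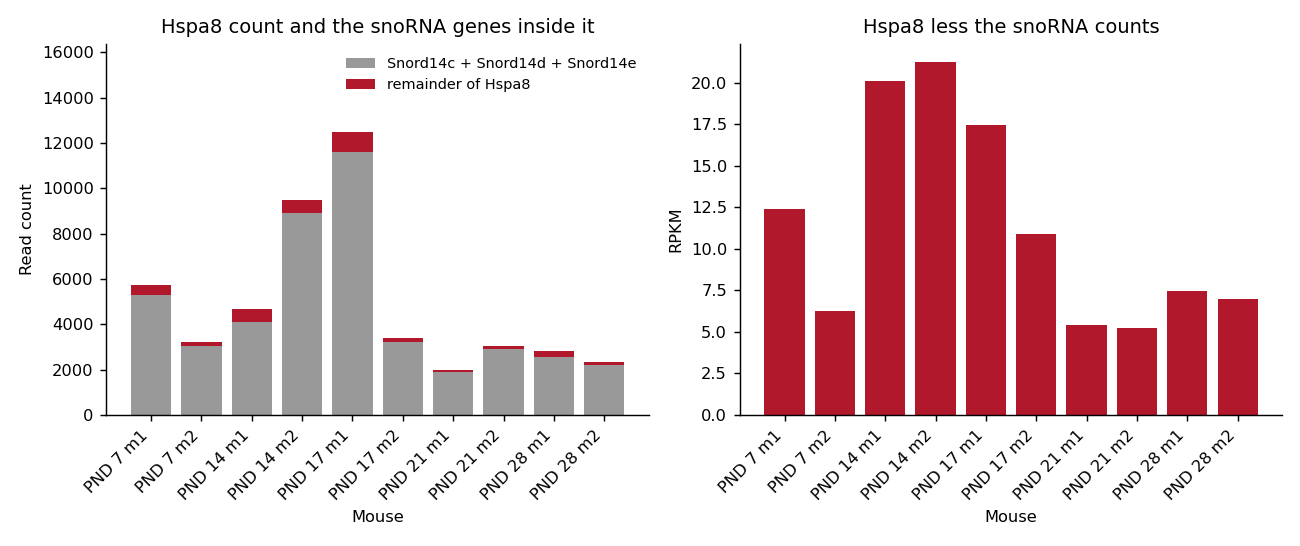
Left, the deposited count of Hspa8 in each mouse (m1 and m2), divided into the summed count of Snord14c, Snord14d and Snord14e (grey) and the remainder (red). Right, the remainder in RPKM, which was 20.1 and 21.3 in PND 14 mice and 5.38 and 5.22 in PND 21 mice.

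Hspa4 and Hsph1 are the general HSP110 genes and act as exchange factors for HSP70 in the cytosol. Hspa4 (ENSMUSG00000020361, chr11:53073316-53113959, minus strand) was at 36.0 and 30.7 RPKM in PND 7 mice, 43.4 and 59.6 in PND 14 mice, 58.9 and 52.1 in PND 17 mice, 59.1 and 51.7 in PND 21 mice and 59.3 and 63.6 in PND 28 mice. It rose 2.31-fold between PND 7 and PND 28 (log2 1.21 ± 0.24, edgeR adjusted p of 0.00118), whereas no single step was called. This call was lost with library totals (log2 0.89) and in limma (log2 0.86), both below the 2-fold threshold. Hsph1 (ENSMUSG00000029657, chr5:150416862-150438951, minus strand) lay between 8.22 and 13.3 RPKM in all 10 mice. Its log2 fold change between PND 7 and PND 28 was 0.27 ± 0.21 with an edgeR adjusted p of 0.298, and it was -0.05 with library totals. Hsph1 was not called in any comparison.

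Hsp90aa1 encodes HSP90 alpha, the inducible cytosolic HSP90, which is also abundant in germ cells. The gene (ENSMUSG00000021270) is at chr12:111928815-111940938 on the minus strand. Its RPKM was 2.81 and 2.82 in PND 7 mice, 10.3 and 19.8 in PND 14 mice, 17.8 and 13.9 in PND 17 mice, 19.1 and 15.3 in PND 21 mice and 18.8 and 19.4 in PND 28 mice. The PND 7 mice were well below the rest, and the mice of PND 14, PND 17 and PND 21 overlapped. It rose 4.90-fold between PND 7 and PND 14 (log2 2.29 ± 0.33, edgeR adjusted p of 0.000694; log2 1.66 without PND 14 mouse 2 and 2.69 without PND 14 mouse 1, still called) and 8.22-fold between PND 7 and PND 28 (log2 3.04 ± 0.33, edgeR adjusted p of 2.16e-05). Of its exon bases 70.7% match other places of mm9 at 95% identity or more over at least 50 bases. Reads from those bases would not be unique, so that its level per length may be understated at every age.

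Hsf1 and Hsf2 encode heat shock factors, of which HSF1 is the main regulator of the stress response and HSF2 is known for roles in meiosis and spermiogenesis. Hsf1 (ENSMUSG00000022556, chr15:76307865-76331402, plus strand) was at 13.5 and 20.4 RPKM in PND 7 mice, 11.9 and 5.62 in PND 14 mice, 5.45 and 6.02 in PND 17 mice, 19.6 and 7.02 in PND 21 mice and 5.54 and 6.53 in PND 28 mice. The mice of PND 14 and of PND 21 differed by more than 2-fold within an age. Hsf1 fell by 1.16 ± 0.44 on the log2 scale between PND 7 and PND 28 (edgeR adjusted p of 0.0396). The call was lost with the RLE scaling (adjusted p of 0.0762), in DESeq2 (adjusted p of 0.0710) and in limma (unadjusted p of 0.0325). In edgeR it was also lost without PND 7 mouse 2 (adjusted p of 0.168), either PND 17 mouse (0.0556 and 0.0558) or either PND 28 mouse (0.175 and 0.105).

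Hsf2 (ENSMUSG00000019878, chr10:57206191-57232939, plus strand) was at 22.0 and 17.7 RPKM in PND 7 mice, 18.7 and 16.6 in PND 14 mice, 15.4 and 14.6 in PND 17 mice, 26.5 and 18.6 in PND 21 mice and 40.1 and 42.1 in PND 28 mice. The PND 28 mice were above all others and close to each other. Hsf2 rose 2.15-fold between PND 21 and PND 28 (log2 1.11 ± 0.22, edgeR adjusted p of 0.0108) and 2.58-fold between PND 7 and PND 28 (log2 1.37 ± 0.22, edgeR adjusted p of 0.000320). The call between PND 21 and PND 28 was close to the thresholds. It was lost with library totals (log2 0.87), with only the 4 mice compared (log2 0.98) and in limma (log2 0.86), and in edgeR without PND 21 mouse 2 (adjusted p of 0.104), PND 28 mouse 1 (0.0813) or PND 28 mouse 2 (0.0756).

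Between PND 7 and PND 14, 5 of the 10 genes were called (Hspa2, Hspa1l, Hspa4l, Hsp90aa1 and Hspa5), all higher, in a comparison in which 18.9% of all genes tested were called, 13.5% higher and 5.43% lower. The median log2 fold change of the 10 genes was 1.01 beside 0.11 for all genes tested. Without PND 7 mouse 2 the count was 3, and without PND 14 mouse 1 it was 5, with Hspa8 in the place of Hspa1l. Between PND 14 and PND 17 edgeR called 0 of the 10, and 0% of all genes tested. None of the 10 had an unadjusted p under 0.05, beside 769 of all genes, and DESeq2 and limma called 0 of the 10 as well. Without PND 14 mouse 2, Hspa1l was called with a log2 fold change of -2.25, and some of all genes were called as well, most of them lower. That fit had PND 14 mouse 1, the library with spermatid RNA, as its only PND 14 library.

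Between PND 17 and PND 21, 0 of the 10 were called in edgeR, beside 10.3% of all genes, of which 9.29% were higher and 1.05% lower. At an unadjusted p under 0.05 there were 4 of the 10 (Hspa2, Hspa1l, Hsf1 and Hsf2), beside 4758 of all 16860 genes. DESeq2 called 1 of the 10, Hsf1, beside 2237 of all genes, and limma called 0. Leaving out PND 14 mouse 1, PND 14 mouse 2 or PND 21 mouse 2 gave 1 call each, Hspa1l in the first cases and Hsf1 in the last. Between PND 21 and PND 28, 2 of the 10 were called (Hspa1l and Hsf2), in a comparison in which 7.66% of all genes were called, 7.37% higher and 0.297% lower. The count was 1 without PND 21 mouse 2, PND 28 mouse 1 or PND 28 mouse 2.

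Over the whole span from PND 7 to PND 28, 8 of the 10 were called, 7 higher (Hspa2, Hspa1l, Hspa4l, Hspa4, Hspa5, Hsp90aa1 and Hsf2) and 1 lower (Hsf1). Among all genes 55.6% were called in that comparison, 32.2% higher and 23.4% lower, so that being called there sets few genes apart, and the median log2 fold change was 1.40 for the 10 and 0.10 for all. With library totals 4743 of all genes were higher and 4984 lower, which turns the balance of directions. The test for any difference among the 5 ages called 8 of the 10, all but Hspa8 and Hsph1, beside 54.6% of all genes. In that test Hspa4 was lost with library totals, in limma and without PND 7 mouse 2 or PND 28 mouse 2. Hsf1 was lost in limma and without PND 7 mouse 2, either PND 17 mouse or either PND 28 mouse. Hspa8 was called with library totals, without a filter on low counts, without PND 14 mouse 1 and with its remainder. Adjacent comparisons share the mice of an age, and the span from PND 7 to PND 28 uses mice of the first and last steps.

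**Figure D4:**
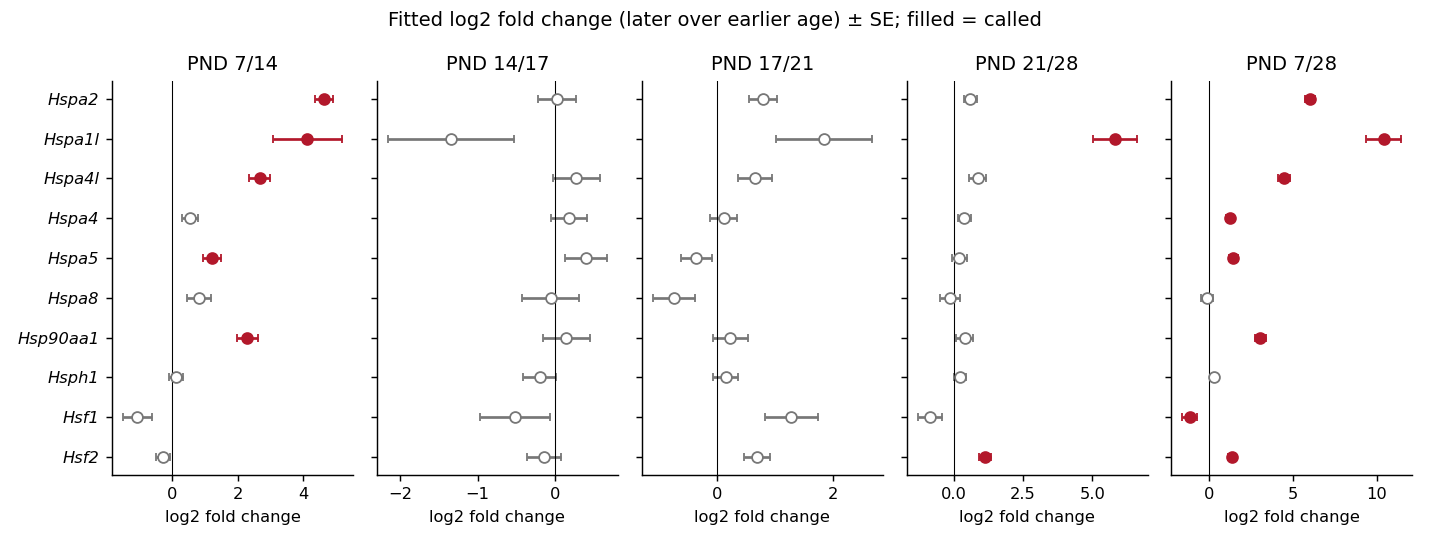
Fitted log2 fold change (later over earlier age) of each of the 10 genes in 5 comparisons, with bars of 1 standard error and filled red points for genes called (adjusted p under 0.05 and a fold of at least 2). The calls were 5, 0, 0, 2 and 8 of the 10 from left to right.

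Ratios within a library do not depend on the scaling between libraries, and 5 of them set a gene beside a related one. The ratio of Hspa4l to Hspa4, testis form over general form, was 0.228, 1.04, 1.11, 1.60 and 2.24 in order of age, each the mean over 2 mice taken on the log2 scale. The log2 ratio was higher by 3.29 at PND 28 than at PND 7. Each ratio was tested for any difference among the 5 ages, not for these 2 ages alone, by the spread between ages over all ways to put the 10 mice into pairs, and Hspa4l over Hspa4 had an exact permutation p of 0.00212 (one-sided, 0.00882 adjusted over the 5 ratios). The smallest p that this design can give is 0.00106. In RPKM the testis HSP110 was thus below its general counterpart in both PND 7 mice. The ratio was near 1 at PND 14 (1.08 and 1.01) and PND 17 (1.07 and 1.14), and higher in both mice of PND 21 and of PND 28. Which gene is above the other depends on the exon lengths used, 11792 bases for Hspa4l and 5528 for Hspa4.

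The ratio of Hsp90aa1 to Hsp90ab1, the constitutive HSP90 beta, moved from 0.0122 at PND 7 to 0.290 at PND 28, a log2 difference of 4.57 (exact permutation p over the 5 ages of 0.00529, 0.00882 adjusted). Hsp90ab1 itself fell by 1.54 on the log2 scale from PND 7 to PND 28 (edgeR adjusted p of 0.000464), from 201 and 284 RPKM to 63.2 and 69.0 RPKM. The ratio of Hsf2 to Hsf1 was 1.19, 2.14, 2.59, 1.88 and 6.74 in order of age, a log2 difference of 2.50 between the first and last age, with an exact permutation p over the 5 ages of 0.0444 before and after adjustment. That p rose above the threshold of 0.05 without PND 7 mouse 2 (0.0836), without PND 17 mouse 1 (0.0794) or mouse 2 (0.0751), and without PND 28 mouse 1 (0.124) or mouse 2 (0.0804) in the same exact permutation test.

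The 2 ratios to Hspa8 use a value that appears to be mostly small nucleolar RNA, as described above. As deposited, Hspa2 over Hspa8 moved by 6.16 on the log2 scale between PND 7 and PND 28 (exact permutation p of 0.00529, 0.00882 adjusted). Hspa1l over Hspa8 moved by 10.0 (exact permutation p of 0.0349, 0.0437 adjusted), and that p rose above 0.05 without PND 7 mouse 1 (0.0540) or mouse 2 (0.0593) and without PND 21 mouse 1 (0.0571) or mouse 2 (0.0561). With the remainder of Hspa8 as denominator the differences were 5.96 (exact permutation p of 0.00212) and 9.80 (exact permutation p of 0.0159). Hspa1l was at 0.23 and 0.12 RPKM in PND 7 mice, close to the 0.1 RPKM added to each value for the ratios. With 1 RPKM added instead, Hspa1l over the deposited Hspa8 moved by 7.88 (exact permutation p of 0.0476), so the size of that difference depended on the amount added.

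**Figure D5:**
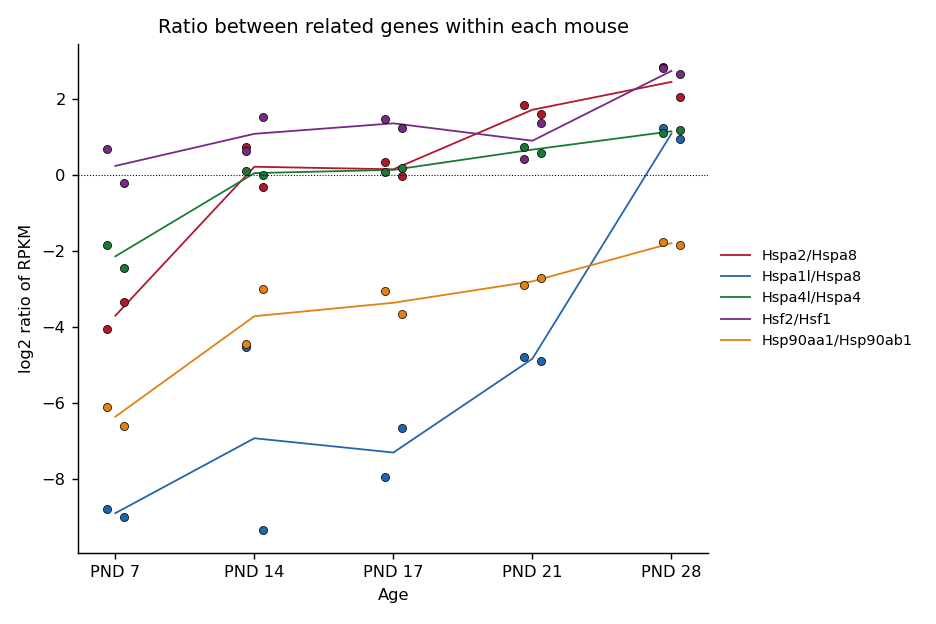
log2 ratio of RPKM (with 0.1 RPKM added to each) between 5 pairs of related genes in each mouse by age, with a line through the mean of the 2 mice. The mean of Hspa4l over Hspa4 moved from -2.13 at PND 7 to 1.16 at PND 28, and that of Hsp90aa1 over Hsp90ab1 from -6.36 to -1.79.

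The order of the levels per length changed with age. At PND 7 Hspa5 (159 ± 13 RPKM, SD, n = 2) and Hspa8 as deposited (130 ± 22.8 RPKM) led, Hspa4 followed at 33.4 ± 3.7 RPKM, and Hspa1l was last at 0.175 RPKM. The mice of Hsf2 and Hsf1 overlapped there, as did those of Hsph1, Hspa2 and Hspa4l, whose means were 9.97, 9.89 and 7.83 RPKM. Hspa2 followed Hspa5 at PND 14 and PND 17 and overlapped with it at PND 21. It overlapped with the deposited Hspa8 at PND 14 and PND 17. At PND 28 Hspa2 led with 511 ± 67 RPKM, followed by Hspa5 with 343 ± 4.5, Hspa1l with 198 ± 20.7, Hspa4l with 138 ± 11.2 and Hspa8 as deposited with 93.7 ± 23.2 RPKM. No neighbours in that order overlapped at PND 28. The remainder of Hspa8 was at 7.46 and 7.00 RPKM there. It is not ranked against other genes, because 49.6% of the exon bases of Hspa8 match other places of mm9. Hspa2 moved from rank 4815 among all genes at PND 7 to rank 148 at PND 28, Hspa4l from rank 5956 to rank 540 and Hspa1l from rank 17396 to rank 353. Hspa2, Hspa1l and Hspa4l made up 4.56% and 4.65% of the summed RPKM of the 10 genes at PND 7, between 25.6% and 31.9% at PND 14 and PND 17, 49.9% and 41.5% at PND 21 and 61.3% and 57.9% at PND 28. These shares hold the deposited value of Hspa8, which was 34.9% and 31.4% of the sum at PND 7.

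The genes whose pattern over the 10 mice was most like that of each testis chaperone are given as a description, from 10364 genes with at least 10 CPM and by Pearson's r of log2(CPM + 1), over libraries that share depth and age. For Hspa2 these were 1700016M24Rik (r = 0.997), Ldhc (r = 0.997), the lactate dehydrogenase of germ cells, and Morc2b (r = 0.996). For Hspa1l they were H1fnt (r = 0.993), a linker histone of spermatids, Slfnl1 (r = 0.993) and Spem1 (r = 0.993), a gene of late spermatids. For Hspa4l they were Iqch (r = 0.998), Ttbk2 (r = 0.996) and Anubl1 (r = 0.996). H1fnt was at 3.65 RPKM at PND 14, 0.435 at PND 17 and 206 at PND 28 as means, and Spem1 at 5.35, 1.05 and 229 RPKM, beside 3.38, 1.41 and 198 RPKM for Hspa1l. The PND 14 mean of Hspa1l joins 6.34 RPKM in mouse 1, the library with spermatid RNA, and 0.41 RPKM in mouse 2. The likeness was not recomputed without that library. Ldhc was at 0.0575 RPKM at PND 7, 505 at PND 14 and 3132 in PND 28 mice. Hspa8 was named beside them after its values were seen, since the gene most like it was Snord14e (r = 0.985), which lies within it.

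The wider chaperone network was described with a list of 122 genes in 9 groups, of which 116 were tested. Between PND 7 and PND 14, 28 of the 116 rose and 1 fell, 25.0% beside the 18.9% of all genes (13.5% higher and 5.43% lower). The 28 included Dnajb7, Dnajc5b, Pdilt and Hsfy2, whose PND 14 counts lay mostly in mouse 1. These were 29 and 1, 29 and 2, 44 and 4, and 20 and 0 in mouse 1 and mouse 2. Between PND 14 and PND 17 edgeR called 0, DESeq2 and limma also 0. The count was above 0 without PND 14 mouse 2, a fit whose only PND 14 library was mouse 1 with its spermatid RNA. Between PND 17 and PND 21, 18 rose and 0 fell, 15.5% beside 10.3% of all genes (9.29% higher). Between PND 21 and PND 28, 14 rose and 0 fell, 12.1% beside 7.66% of all genes (7.37% higher). From PND 7 to PND 28, 57 rose and 9 fell, 56.9% beside 55.6% of all genes (32.2% higher and 23.4% lower). The median log2 fold change was 0.97 beside 0.10 for all genes, and the test over all 5 ages called 68. Without single mice the counts between adjacent ages moved in both directions, in the network as among all genes. The largest drops are given here. Without PND 7 mouse 2 there were 19 calls between PND 7 and PND 14, while all genes went from 3191 to 2002. Between PND 17 and PND 21 there were 5 without PND 17 mouse 1, 5 without PND 17 mouse 2 and 7 without PND 21 mouse 1, while all genes went from 1743 to 576, 266 and 492. Between PND 21 and PND 28 there were 8 without PND 21 mouse 1, 4 without PND 21 mouse 2 and 9 without PND 28 mouse 1, while all genes went from 1292 to 459, 312 and 463.

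The J-domain proteins, which deliver substrates to HSP70, were the largest group, with 44 of 45 tested. Between PND 7 and PND 28, 24 rose and 0 fell, 54.5% beside 55.6% of all genes (32.2% higher and 23.4% lower). Of the 44, 11 rose between PND 7 and PND 14, 25.0% beside 13.5% of all genes higher. Between PND 17 and PND 21, 9 rose (20.5% beside 9.29% higher), and between PND 21 and PND 28, 9 rose (20.5% beside 7.37% higher). Dnajb7 had no count in either PND 7 mouse, 109 and 124 RPKM in PND 28 mice, and was at least 931-fold higher there, against a floor of 3 counts over the 2 PND 7 mice. Dnajc5b, a relative of the cysteine string protein, likewise had no count at PND 7, was at 94.7 and 97.7 RPKM at PND 28 and was at least 827-fold higher. At PND 14 Dnajb7 and Dnajc5b had 29 counts each in mouse 1 and 1 and 2 in mouse 2, the same division as for most spermatid markers. Both were among the 11 called between PND 7 and PND 14.

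Nucleotide exchange factors rose in 6 of 10 cases between PND 7 and PND 28, with none lower. Among all genes 55.6% were called, 32.2% higher and 23.4% lower. Bag5, a BAG domain exchange factor, went from 6.41 and 9.81 RPKM to 273 and 275 RPKM (log2 5.40, edgeR adjusted p of 6.29e-07). Sil1, the exchange factor of Hspa5, went from 7.99 and 3.85 RPKM to 40.4 and 36.6 RPKM (log2 3.03, edgeR adjusted p of 5.18e-05, and log2 3.75 without PND 7 mouse 1). Both were also called between PND 7 and PND 14, with log2 fold changes of 1.40 and 1.26, and only Bag5 was called between PND 21 and PND 28, at 1.68, while Sil1 had 0.79 there. The difference between these values was not tested.

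Of the 10 folding factors of the endoplasmic reticulum, 5 rose and 0 fell between PND 7 and PND 28. Beside them, 55.6% of all genes were called, 32.2% higher and 23.4% lower. Pdilt, a testis relative of protein disulfide isomerase, had no count at PND 7 and was at 82.9 and 74.1 RPKM in PND 28 mice, at least 1169-fold higher. Clgn, which encodes calmegin, a lectin chaperone of germ cells, was at 1.69 and 0.06 RPKM in PND 7 mice, 57.2 and 86.0 RPKM in PND 14 mice and 159 and 178 RPKM in PND 28 mice (log2 7.80 from PND 7 to PND 28, edgeR adjusted p of 1.55e-05). At PND 14 Clgn was thus well above its level at PND 7 in both mice, whereas Pdilt had 2.69 and 0.27 RPKM at that age. The chaperonin group had 7 of 11 higher and 1 lower, 72.7% beside the same 55.6%. Cct6b, the testis form of a subunit of the chaperonin CCT, went from 0.12 RPKM and no count at PND 7 to 131 and 147 RPKM in PND 28 mice (log2 11.19, edgeR adjusted p of 6.17e-07). Tcp1, the alpha subunit of CCT, went from 74.8 and 72.1 RPKM to 494 and 427 RPKM (log2 2.98, edgeR adjusted p of 6.8e-06), with a nested small RNA gene equal to 4.51% of its count. PND 7 mouse 2 was at 0.06 RPKM of Clgn and had no count of Cct6b. The log2 fold changes of Clgn and Cct6b were 11.46 and 14.08 without PND 7 mouse 1, the latter dependent on the prior count, and 6.94 and 10.46 without PND 7 mouse 2.

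The other HSP70 group held 9 Ensembl entries, with a repeated symbol among them. Between PND 7 and PND 28, 2 of the 9 entries were higher and 3 lower, the same share as the 55.6% of all genes. Hyou1, the HSP110 of the endoplasmic reticulum, rose from 22.6 and 19.6 RPKM to 43.0 and 43.9 RPKM (log2 1.37, edgeR adjusted p of 0.000343). Hspa14, an HSP70 that works at the ribosome, fell by 1.60 on the log2 scale, from 8.24 and 9.5 RPKM to 1.86 and 2.79 RPKM (edgeR adjusted p of 0.000623). The stress-inducible Hspa1a and Hspa1b stayed low, at 0.26 to 1.78 RPKM and 0.49 to 3.71 RPKM over the 10 mice. Most of their exon bases match other places of mm9, 74.0% for Hspa1a and 80.8% for Hspa1b, so that unique reads could count only a part of them. Of the 3 HSP90 genes, Trap1, the mitochondrial HSP90, rose from 29.1 and 21.3 RPKM to 74.5 and 60.0 RPKM (log2 1.75, edgeR adjusted p of 0.000184), Hsp90ab1 fell as given above and Hsp90b1 was not called.

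Among 19 co-chaperones of HSP70 and HSP90, 6 rose and 3 fell between PND 7 and PND 28, 47.4% beside 55.6% of all genes. Ttc4, a tetratricopeptide protein that binds both chaperones, went from 13.8 and 19.3 RPKM to 88.9 and 69.1 RPKM (log2 2.59, edgeR adjusted p of 1.1e-05). Pih1d1, a subunit of an HSP90 co-chaperone complex, went from 6.04 and 13.7 RPKM to 75.5 and 57.0 RPKM (log2 3.05, edgeR adjusted p of 4.25e-05). Small heat shock proteins were tested for 7 of 10, with 3 higher and 1 lower, 57.1% beside the same 55.6%. Hspb9, which is known from the testis, went from 0.70 RPKM and no count at PND 7 to 262 and 310 RPKM in PND 28 mice (log2 9.97, edgeR adjusted p of 1.48e-06), and Hspb6 from 0.495 RPKM and no count to 5.59 and 4.55 RPKM (log2 4.47, edgeR adjusted p of 0.000531). PND 7 mouse 2 had no count of either gene, so the size of these fold changes depended on the PND 7 mouse kept. Without PND 7 mouse 1 the log2 fold change was 13.76 for Hspb9 and 9.62 for Hspb6, fitted values that then depend on the prior count, and without PND 7 mouse 2 it was 9.19 and 3.63. Pih1d1 was at 2.60 without PND 7 mouse 1 and at 3.72 without PND 7 mouse 2.

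Of the 5 further heat shock factor genes 3 were tested, and all 3 rose between PND 7 and PND 28. Among all genes 32.2% were higher and 23.4% lower. Hsf5 was at 0.855 and 0.49 RPKM in PND 7 mice, 30.1 and 49.0 in PND 14 mice, 56.3 and 46.2 in PND 17 mice, 91.7 and 93.8 in PND 21 mice and 122 and 93.2 in PND 28 mice (log2 7.61 from PND 7 to PND 28, edgeR adjusted p of 4.71e-07). Hsfy2 had no count at PND 7, 15.3 and 9.65 RPKM in PND 21 mice and 66.0 and 74.0 RPKM in PND 28 mice, at least 661-fold higher than at PND 7. At PND 28 Hsf5 and Hsfy2 were above Hsf2, at 40.1 and 42.1 RPKM, and above Hsf1, at 5.54 and 6.53 RPKM.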

How the data were processed

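The authors extracted RNA from whole testes, depleted ribosomal RNA, sequenced reads of 50 bp on the SOLiD 4 and aligned them to mm9 with LifeScope, dropping reads with more than 10 alignments. The deposited values are, per Ensembl gene, the count of unique reads and the RPKM made from it. Whether strand was used, and how reads on overlapping genes were counted, is not given in the sources used here. Symbols and exons came from GENCODE M1, which held 37310 of the 37675 genes.

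The counts of the 2 barcodes of each PND 7 mouse were summed and their RPKM averaged. Counts of all 10 mice were fitted together in edgeR 4.0.16 (R 4.3.3) with TMM, filterByExpr and quasi-likelihood tests. A gene was called at a Benjamini-Hochberg adjusted p under 0.05 over all genes tested and a fold of at least 2. Ratios of RPKM were tested by exact permutation over mice. Alternatives were DESeq2 1.42.0, limma 3.58.1 on log2(RPKM + 1) with the study's criteria, other scalings and filters, fewer mice and a mouse-number block. The count of Hspa8 less its small nucleolar RNAs was added after the values were seen. Scripts were tested on simulated data. Other tables were made in Python 3.11.15 with pandas 2.3.3, numpy 2.4.6 and scipy 1.17.1, and figures with matplotlib 3.10.9. Intervals cover counting error only.

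The members and lists were chosen with earlier results of these data known. Network genes are named as the 2 with the largest absolute log2 fold change between PND 7 and PND 28 in each group, among those called with at least 5 CPM, plus Hsp90ab1. The 3 genes most like each testis chaperone are named by Pearson's r. Hspa1a, Hspa1b, Gm10501 and the Snord14 genes were added after their values were seen. Single deviating mice within an age were not tested. The marker lists covered spermatogonia, spermatocytes, spermatids, Sertoli, Leydig, peritubular, macrophage and red blood cells.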

Additional observations from a re-analysis of the deposited data

How the results depend on the processing

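Members and network counts were recomputed under 20 other settings (19 for the test over all 5 ages, which has no version with only the 4 mice compared), and the ratios under 13 planned settings. Of 303 such values for the 17 counts and ratios, 268 kept their call or stayed within 1.5 times, and none was reversed. Of 8 further values with the remainder of Hspa8, 7 did. Of 802 values for 40 single genes, 770 kept direction and call. The cause of the changes below was not tested.

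Between PND 14 and PND 17 the members called were 1 and the network genes 5 without a filter on low counts. Between PND 17 and PND 21 the members called were 1 in DESeq2, 2 without the filter, 1 with only the 4 mice and 1 with the remainder of Hspa8, and the network count was 7 in limma. Between PND 21 and PND 28 the members called were 1 with library totals, with only the 4 mice and in limma. Leaving out a mouse gave 3 to 5, 0 to 1, 0 to 1, 1 to 2, 7 to 8 and 6 to 9 members and 19 to 39, 0 to 4, 5 to 23, 4 to 17, 60 to 68 and 65 to 72 network genes, for the steps in order of age, the whole span and all 5 ages. For the ratios it gave log2 differences of 9.85 to 10.1 for Hspa1l over Hspa8, 2.05 to 2.95 for Hsf2 over Hsf1, 5.77 to 6.55 for Hspa2 over Hspa8, 2.99 to 3.60 for Hspa4l over Hspa4 and 4.33 to 4.82 for Hsp90aa1 over Hsp90ab1. Hsf2 over Hsf1 kept its value of 2.50 but had an exact permutation p of 0.0857 with the sum of absolute differences within ages.

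The log2 fold change of Hspa8 from PND 7 to PND 28 reversed to 0.032 with RLE and 0.0321 in DESeq2, and lay between -0.38 and 0.098 without single mice (0.095 without PND 7 mouse 1 and 0.098 without PND 28 mouse 1). That of Hsph1 reversed to -0.0548 with library totals and -0.0544 in limma.

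Mouse numbers name different animals. Deviations of same-numbered mice from their age mean correlated between -0.17 and 0.343, the highest value being that of PND 14 with PND 21. Whether same-numbered libraries share a trait was not tested. With the mouse number as a replicate block the members called were 5, 0, 0, 2, 8 and 8 and the network genes 28, 0, 17, 14, 65 and 67. For the ratios the mean of each mouse number was subtracted. The mice were then paired without regard to number, so that the permutation p is not exact here. It was 0.00317 for Hspa2 over Hspa8, 0.0254 for Hspa1l over Hspa8, 0.00317 for Hspa4l over Hspa4, 0.0402 for Hsf2 over Hsf1 and 0.00423 for Hsp90aa1 over Hsp90ab1.

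Over all genes tested, calls in edgeR were 3191, 0, 1743, 1292, 9378 and 9211. Limma called 978, 4, 772, 845, 3842 and 4160. With only the 4 mice there were 2034 between PND 7 and PND 14. Without a filter there were 357 between PND 14 and PND 17 and 1970 between PND 21 and PND 28, and DESeq2 called 1 between PND 14 and PND 17. Leaving out a mouse gave as few as 266 between PND 17 and PND 21 and 312 between PND 21 and PND 28. Library totals moved the share of higher calls between PND 17 and PND 21 from 89.8% to 78.9%. The median log2 fold change of all genes between PND 7 and PND 28 was 0.10 with TMM, 0.27 with RLE and -0.22 with library totals.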
